A study of Mus musculus with 2 samples.

Results

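CD8 T cells were examined in single-cell RNA sequencing of squamous tumours of the tongue, a mouse model of head and neck cancer (HNSCC). Wild type C57BL/6 mice received the carcinogen 4NQO and then JQ1, an inhibitor of BET bromodomains, or control for 10 days. Each treatment has 1 library, and no label says how many mice a library came from. Tumours taken from the tongue were dissociated and run on the 10x 3′ platform. Single barcodes, each nominally 1 cell, were kept with at least 200 detected genes and under 20% mitochondrial UMIs (unique molecular identifiers, which count captured RNA molecules). CD8 cells were chosen by their UMIs of 11 genes. Each had at least 1 UMI of Cd3d, Cd3e or Cd3g and at least 1 of Cd8a or Cd8b1. None had a UMI of Cd4, Foxp3, C1qa or Csf3r, and each had under 0.5% of its UMIs from Krt5 and Krt14. Of barcodes positive for Cd3 and Cd8 genes, 44 in JQ1 and 26 in control, the other limits left 40 barcodes of the JQ1 library and 22 of the control library, 62 of 22737 kept barcodes. Cd3-positive barcodes with no Cd8a or Cd8b1 UMI, under the same limits on C1qa, Csf3r, Krt5 and Krt14, served as other T cells (429 JQ1 and 197 control). Other T cells could hold Cd4 or Foxp3 UMIs, which the rule barred from CD8 cells.

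CD8 T cells read peptides on class I molecules through an alpha-beta receptor, with the CD8 chains as co-receptor. They kill with granules that hold perforin and granzymes, and they secrete interferon gamma and chemokines such as CCL5. In tumours they range from stem-like cells with Tcf7 to cells with several inhibitory receptors such as PD-1. The tongue lining also holds gamma-delta T cells, some of which make interleukin 17, and tumours hold regulatory and other CD4 T cells. All of these remain among the other T cells here. So does any CD8 T cell with no Cd8a or Cd8b1 UMI captured, and how many such cells there are was not tested.

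Upstream sequences are printed for Cd8a, which defined the cells, and for Nkg7 and Ms4a4b, whose levels set CD8 cells apart in both libraries. They come from RefSeq (GRCm38.p6), 5′ to 3′ on the plus strand, and stop before the first annotated base of the gene. Of the 9 genes ranked below as higher in CD8 cells, 7 had an entry. Capitals mark a match on either strand to the RUNX core (TGTGGT) or the T-box half-site (GGTGTGA), motifs of factor families known from CD8 T cells.
Cd8a, chr6:71373177-71373426: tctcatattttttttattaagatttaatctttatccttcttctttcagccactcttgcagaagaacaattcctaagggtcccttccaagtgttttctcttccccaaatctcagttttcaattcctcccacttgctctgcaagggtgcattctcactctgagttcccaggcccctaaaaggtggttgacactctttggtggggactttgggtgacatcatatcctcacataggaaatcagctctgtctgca
Nkg7, chr7:43436888-43437072: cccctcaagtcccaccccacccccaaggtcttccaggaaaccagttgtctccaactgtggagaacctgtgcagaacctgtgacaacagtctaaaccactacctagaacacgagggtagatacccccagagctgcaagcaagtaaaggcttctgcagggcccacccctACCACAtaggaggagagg
Ms4a4b, chr19:11443308-11443552: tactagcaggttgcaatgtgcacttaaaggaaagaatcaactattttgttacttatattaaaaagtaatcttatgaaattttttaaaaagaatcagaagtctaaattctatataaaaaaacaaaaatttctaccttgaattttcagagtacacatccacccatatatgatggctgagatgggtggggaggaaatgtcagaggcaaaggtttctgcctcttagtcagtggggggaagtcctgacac
The Nkg7 stretch held 1 RUNX core match, on the minus strand, and 10.7% of 32851 promoters held one in a window of the same 185 bases. The stretches of Cd8a and Ms4a4b held neither motif. In windows of their lengths the RUNX core occurred in 14.0% and 13.9% of promoters, and the T-box half-site in 3.33% and 3.27%.

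The 2 libraries held 99565417 UMIs (JQ1) and 118382532 UMIs (control). A CD8 cell had a median of 3347.5 UMIs in the JQ1 library (629 to 41409) and 2879 in the control library (976 to 26209). Of the 62 cells, 20 were just inside the rule with a single Cd8a or Cd8b1 UMI, 15 of 40 in JQ1 and 5 of 22 in control. The receptor constant genes Trac, Trbc1 or Trbc2 were detected in 35 of 40 JQ1 and 21 of 22 control CD8 cells. Trdc, the gamma-delta receptor constant gene, was detected in none, which allows a Trdc UMI in up to 7.5% of JQ1 and 13.6% of control CD8 cells and sets no limit on cells that express it below detection. Of 11 natural killer cell genes, 3 were detected in JQ1 CD8 cells (11 UMIs, 51.3 CPM) and 1 in control CD8 cells (2 UMIs, 23.3 CPM). Ncr1, Klrb1c and Klra8 were at 0 in CD8 cells and in other T cells alike. Of 7 dendritic cell genes, 1 was detected in JQ1 CD8 cells (12 UMIs, 55.9 CPM) and 2 in control CD8 cells (6 UMIs, 70.0 CPM), with Xcr1, Clec9a and Flt3 at 0 in both. As a background for free RNA, 3 of 4812 JQ1 fibroblasts (0.0623%, median 4162.5 UMIs) and 0 of 911 control fibroblasts (median 3345 UMIs), which allows up to 0.329%, had a Cd8a or Cd8b1 UMI. The libraries shared 40 barcodes, none of them among CD8 cells.

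Among the CD8 barcodes, a few were led by genes of other cell types. The deepest JQ1 barcode held 19.3% of all JQ1 CD8 UMIs, and 20.3% of its own UMIs were Lipf and 9.56% Bpifb1, both gland genes. The third deepest JQ1 barcode was led by Malat1 and the matrix gene Dcn. The deepest control barcode held 30.6% of the control CD8 UMIs and was led by Fabp5 and the keratinocyte genes Krt13 and Krt4. Summed over 7 keratinocyte markers, CD8 cells had 354 CPM (UMIs scaled to a common total) in JQ1 and 19494 CPM in control. Over 5 fibroblast markers they had 2652 CPM in JQ1 and 11.7 CPM in control, and over 5 gland markers 1333 CPM and 23.3 CPM. Scrublet called 3 of the 40 JQ1 CD8 barcodes and none of the 22 control barcodes doublets.

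Many results are therefore also given with marker and depth limits, an alternative chosen after the data were seen. It keeps barcodes with under 1% of UMIs from these keratinocyte, gland and fibroblast markers and at most 3 times the median UMIs of their group. This left 34 JQ1 and 21 control CD8 cells, with 367 JQ1 and 181 control other T cells. Within these limits the keratinocyte sum of CD8 cells was 222 CPM in JQ1 and 572 CPM in control. The fibroblast sum was 79.8 CPM in JQ1 and 16.8 CPM in control. The gland sum was still 665 CPM in JQ1 and 33.6 CPM in control, and 4 haemoglobin genes summed to 479 CPM in JQ1 and were at 0 in control. Markers of further cell types were not limited. In other T cells the haemoglobin sum was 3371 CPM in JQ1 and 0 in control. Over 5 neutrophil markers, other T cells had 1671 CPM in JQ1 and 481 CPM in control, and CD8 cells 71.0 CPM and 118 CPM.

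**Figure D1:**
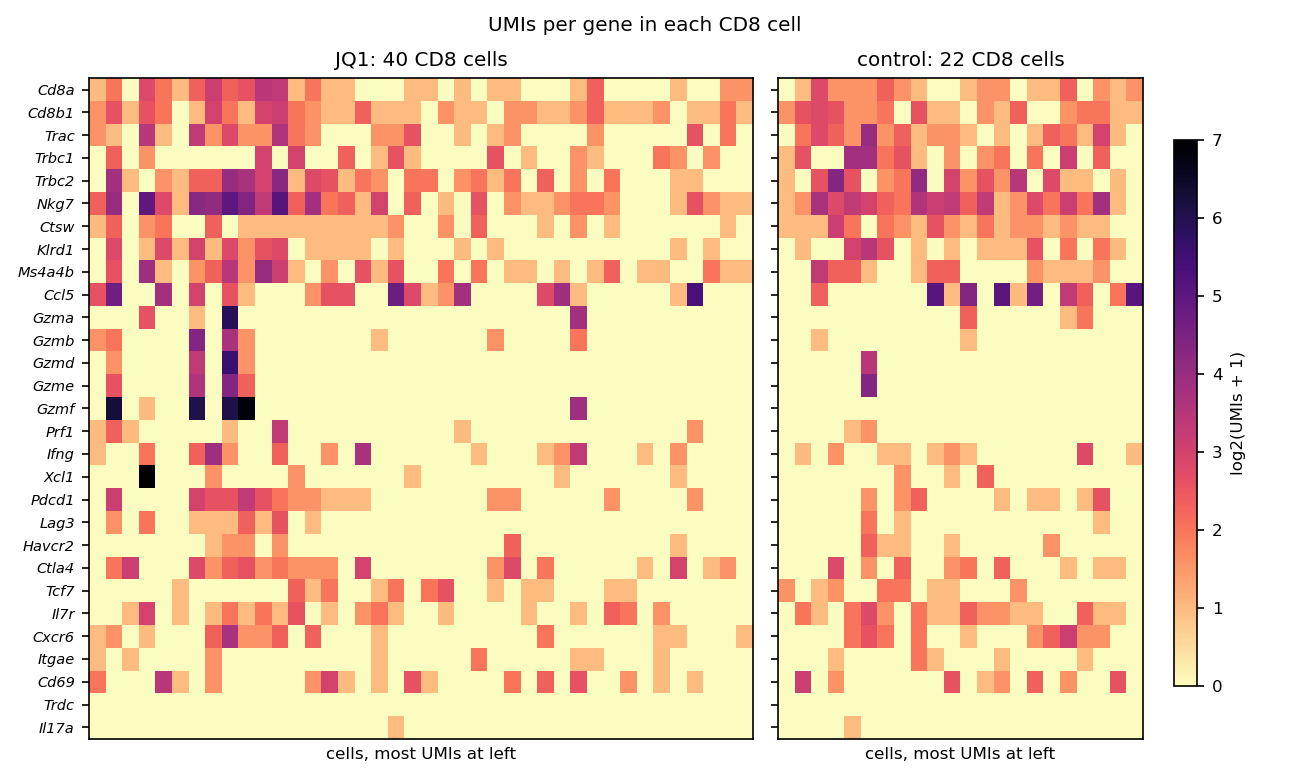
UMIs of 29 genes (rows) in each CD8 cell (columns), as log2(UMIs + 1), for 40 JQ1 cells on the left and 22 control cells on the right, ordered by total UMIs with the deepest at the left. Nkg7 appears in most columns, Ccl5 in 19 JQ1 and 11 control columns, and Gzmf in 6 JQ1 columns and no control column.

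The first comparison asked which genes set CD8 cells apart from other T cells. UMIs were summed per library and cell group, and the 4 sums were compared with edgeR, with the library as a block. Of 2753 genes tested, 13 were higher (0.472%) and 22 lower (0.799%) in CD8 cells at an adjusted p under 0.05. The higher genes included 6 of 17 cytotoxic genes tested, and the lower genes 4 of 7 type 17 genes. The fit has 2 libraries and 1 residual degree of freedom. Its p-values rest on how far the ratio of CD8 to other T cells differs between these libraries, and on spread pooled across genes. That difference may be technical or go with JQ1, and the 2 cannot be told apart here. A gene at 0 in both sums of 1 library, such as Gzmf in control, has no ratio there. For such a gene the p-value does not measure agreement between the libraries. Dropping the library block gave 0 calls in either direction, with 164 genes at an unadjusted p under 0.05, and DESeq2 with the block called 25 higher and 12 lower. With marker and depth limits, 110 of 2769 genes were higher (3.97%) and 154 lower (5.56%). Of the 110 higher genes, 54 were ribosomal protein genes, of 87 such genes tested. Of the 13 and 22 genes, 11 and 14 were called there as well.

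Of 24 genes of the cytotoxic list, 17 were tested, 6 were higher in CD8 cells and none lower. The median log2 fold change of the 17 was 1.81, against -0.03 over all tested genes. Under the marker and depth limits 11 of 17 were higher and 1, Srgn, lower.

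Nkg7, a membrane protein of cytotoxic granules, had 1165 CPM in JQ1 and 1424 CPM in control CD8 cells, against 218 CPM in JQ1 and 226 CPM in control other T cells. It was detected in 32 of 40 JQ1 and 21 of 22 control CD8 cells, and in 0.145% of JQ1 fibroblasts and none of the control ones. Both CD8 sums lay above both sums of other T cells, with a log2 fold change of 2.61 ± 0.24 (SE) and an edgeR adjusted p of 0.0141. Klrd1, the CD94 chain of killer-cell lectin receptors, had 233 CPM in JQ1 and 467 CPM in control CD8 cells, against 32.6 CPM and 71.9 CPM in other T cells. Its log2 fold change was 2.84 ± 0.32 (adjusted p = 0.0241). Ctsw, a cysteine protease of cytotoxic lymphocytes, had 168 CPM in JQ1 and 479 CPM in control CD8 cells, against 43.3 CPM and 80.1 CPM in other T cells (log2 2.33 ± 0.34, adjusted p = 0.0395). Ms4a4b, a membrane protein of T cells, had 447 CPM in JQ1 and 397 CPM in control CD8 cells, against 77.5 CPM and 70.3 CPM in other T cells (log2 2.59 ± 0.30, adjusted p = 0.0254). For each of these 4 genes the CD8 sums exceeded the other T sums in both libraries, and no single cell held more than 26.5% of the CD8 UMIs in a library. With marker and depth limits their log2 fold changes were 2.63, 2.91, 2.30 and 2.56, all past the threshold. At least 1 of the 4 was detected in 37 of 40 JQ1 and 21 of 22 control CD8 cells.

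These 4 calls depend on which T cells stand on the other side. Against other T cells with a Cd4 UMI (104 JQ1 and 43 control), the log2 fold change of Nkg7 was 1.52 (adjusted p = 0.0581), of Klrd1 1.56 (0.414), of Ctsw 1.95 (0.132) and of Ms4a4b 1.43 (0.190). Against other T cells with a Trac UMI and no gamma-delta UMI (166 JQ1 and 70 control), a group chosen after the data were seen, edgeR called 0 genes in either direction with 177 at an unadjusted p under 0.05. DESeq2 was not run on that group. With other T cells taken without limits on C1qa, Csf3r, Krt5 and Krt14, 1 gene was called higher and 4 lower, and the adjusted p of Nkg7 was 0.0568. Against Trac cells Nkg7 was higher by 2.11 on the log2 scale (adjusted p = 0.129) and Klrd1 by 2.01 (adjusted p = 0.224).

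Granzymes D, E and F, mouse granzymes encoded together in 1 gene cluster, were higher in CD8 cells and rested on few cells. Their sequences are close, so that reads may be split between them. Gzmf had 336 UMIs in JQ1 and none in control CD8 cells, against 29 UMIs, all from 1 cell, in JQ1 and none in control other T cells (log2 6.69 ± 0.52, adjusted p = 0.0147). Since both control sums were at 0, this value rests on the JQ1 library, and the sign in control comes from the 3-count floor alone. The 6 JQ1 cells held 114, 75, 67, 65, 14 and 1 of these UMIs, and Scrublet called the cells with 75 and 1 doublets. Gzme had 39 UMIs in 4 JQ1 and 19 UMIs in 1 control CD8 cell, against 2 UMIs in JQ1 and none in control other T cells (log2 7.72 ± 0.61, adjusted p = 0.0117). Gzmd had 60 UMIs in 4 JQ1 and 10 UMIs in 1 control CD8 cell, against 14 UMIs and none in other T cells (log2 5.57 ± 0.58, adjusted p = 0.0233). The 3 genes shared cells: 6 JQ1 CD8 cells and 1 control CD8 cell had any of them, and 4 JQ1 cells and that control cell had at least 2 of them. All of them had Nkg7, while Gzmb was detected in 5 of the 6 JQ1 cells and not in the control cell. One JQ1 cell, with 6598 UMIs in all, held 59 UMIs of Gzma, 12 of Gzmb, 47 of Gzmd, 19 of Gzme and 67 of Gzmf.

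Other cytotoxic genes were uneven. Gzmb, which triggers death of the target cell, had 205 CPM in JQ1 and 23.3 CPM in control CD8 cells, against 97.8 CPM and 111 CPM in other T cells. CD8 cells were thus above other T cells in the JQ1 library and below them in the control library, and the gene did not pass (log2 0.30 ± 0.78, adjusted p = 0.948). Gzma had 363 CPM and 93.4 CPM in CD8 cells against 104 CPM and 1.63 CPM in other T cells, with 75.6% of the JQ1 CD8 UMIs in 1 cell (log2 2.56 ± 0.80, adjusted p = 0.423; 2.19 and 0.00184 with marker and depth limits). Perforin, Prf1, was too low to test, at 88.5 CPM and 35.0 CPM in CD8 cells against 8.01 CPM and 4.90 CPM in other T cells. Ifng, interferon gamma, had 270 CPM and 187 CPM in CD8 cells against 143 CPM and 155 CPM in other T cells (log2 0.71 ± 0.33, adjusted p = 0.582). Serpinb9, which protects killer cells from granzyme B, had 149 CPM and 35.0 CPM against 24.6 CPM and 4.90 CPM (log2 2.71 ± 0.49, adjusted p = 0.0758). It was past the threshold with marker and depth limits, as were Klrk1, Klrc1 and Serpinb6b.

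**Figure D2:**
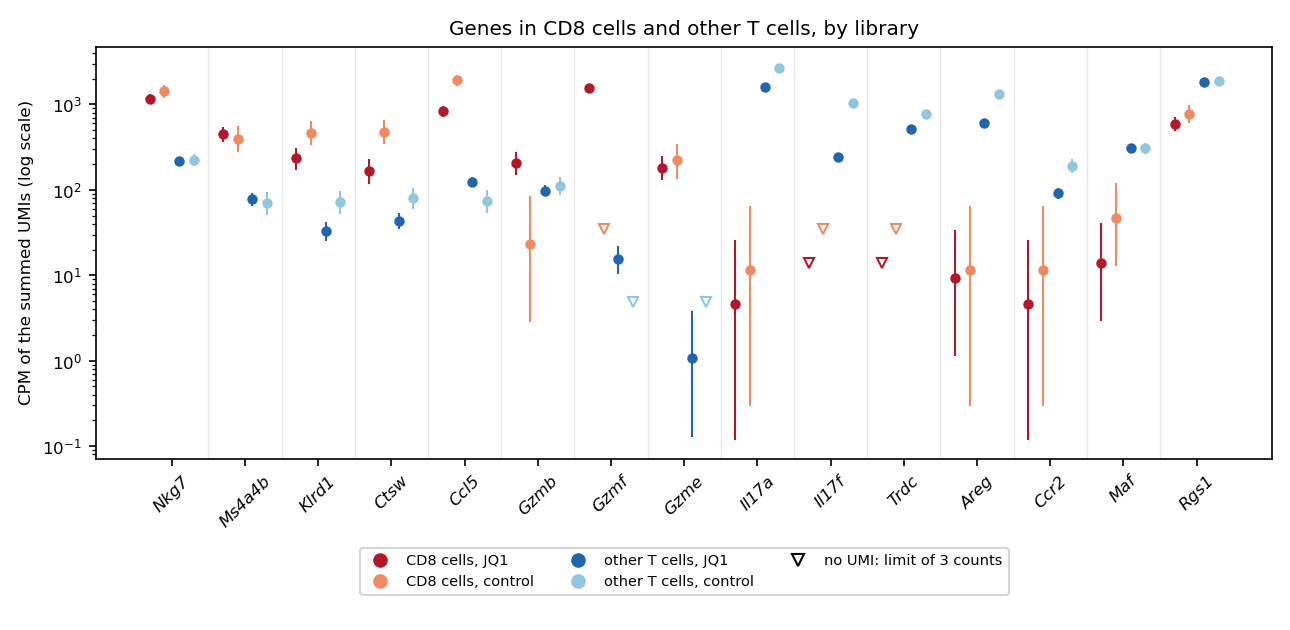
CPM of summed UMIs (log axis) for 15 genes in CD8 cells of JQ1 and control and in other T cells of JQ1 and control, left to right within a gene. Points have exact 95% Poisson intervals, which cover counting error only, and open triangles mark the limit of 3 counts where no UMI was seen. Nkg7, Ms4a4b, Klrd1 and Ctsw are higher in both CD8 sums, and Il17a, Il17f, Trdc and Areg lower in both.

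Among chemokine and chemokine receptor genes, 7 of 15 were tested, none was higher and 1, Ccr2, was lower. Ccl5, which draws T cells and myeloid cells, had 829 CPM in JQ1 and 1914 CPM in control CD8 cells, against 124 CPM in JQ1 and 73.5 CPM in control other T cells. Both CD8 sums were above both other sums, but the excess was 6.66-fold (5.45 to 8.13) in JQ1 and 26.0-fold (18.6 to 37.1) in control, and the gene did not pass (log2 3.76 ± 0.64, adjusted p = 0.167). It did with the limits (log2 3.46 ± 0.52, adjusted p = 0.0151). Ccr2, the receptor for CCL2, had 1 UMI in each CD8 sum, 4.66 CPM in JQ1 and 11.7 CPM in control, against 91.4 CPM and 191 CPM in other T cells (log2 -4.06 ± 0.60, adjusted p = 0.0395). Xcl1, a chemokine for cross-presenting dendritic cells, had 230 UMIs in JQ1 CD8 cells, of which 97.0% were in 1 cell that Scrublet called a doublet, and 7 UMIs in control CD8 cells. Ccl4 had 107 CPM and 280 CPM in CD8 cells against 168 CPM and 150 CPM in other T cells, with opposite directions in the 2 libraries.

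Of 21 genes of the T cell receptor and its signalling, 19 were tested and none was called, with a median log2 fold change of 0.18. Trac had 345 CPM in JQ1 and 700 CPM in control CD8 cells, against 227 CPM and 219 CPM in other T cells (log2 1.20 ± 0.34, adjusted p = 0.233). Trbc2 had 564 CPM and 1004 CPM against 313 CPM and 469 CPM (log2 1.05 ± 0.26, adjusted p = 0.166), and its reads may be shared with Trbc1. Within the limits 4 of 20 were higher, namely Trac, Trbc2, the kinase Lck and the surface protein Cd7. Of the other T cells, 104 in JQ1 and 48 in control had a Trdc UMI.

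Genes of naive and memory T cells, checkpoints, tissue residence and lineage factors mostly did not separate the groups. Of 10 naive and memory genes tested none was called. Tcf7, a factor of naive and stem-like T cells, had 121 CPM in JQ1 and 175 CPM in control CD8 cells, against 40.6 CPM and 50.7 CPM in other T cells. It did not pass (log2 1.74 ± 0.35, adjusted p = 0.0899). It passed in 7 of 14 alternative fits, the marker and depth limits among them (log2 1.93 ± 0.38, adjusted p = 0.00069), and over the 14 its log2 fold change was 1.53 to 2.01 and its adjusted p 0.00069 to 0.455. Il7r, the interleukin 7 receptor, had 196 CPM and 420 CPM in CD8 cells against 371 CPM and 577 CPM in other T cells (adjusted p = 0.578). Of 8 checkpoint genes tested none was called. Pdcd1, which encodes PD-1, had 266 CPM and 198 CPM in CD8 cells against 151 CPM and 212 CPM in other T cells (log2 0.48 ± 0.35, adjusted p = 0.782). Tigit was at 0 in CD8 cells of both libraries. With the limits Lag3, Cd160 and Nr4a2 were higher and Ctla4 lower, of 10 tested.

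Of 10 residence genes tested, 1 was lower. Rgs1, a regulator of G protein signalling, had 592 CPM in JQ1 and 782 CPM in control CD8 cells, against 1823 CPM and 1864 CPM in other T cells (log2 -1.37 ± 0.19, adjusted p = 0.0395). Both CD8 sums lay below both other sums. Itgae, the integrin chain CD103, had 51.3 CPM and 81.7 CPM in CD8 cells against 80.7 CPM and 144 CPM in other T cells (adjusted p = 0.715). Cd69, a retention marker, had 228 CPM and 339 CPM against 356 CPM and 474 CPM (adjusted p = 0.672). None of 10 lineage factors tested was called; 9 of the 10 had a negative fold change, and Rora, a factor of type 17 and innate-like T cells, had a log2 fold change of -1.60 ± 0.47 (adjusted p = 0.279; 0.00015 with the limits). Runx3, a factor of the CD8 lineage, had 289 CPM and 128 CPM in CD8 cells against 170 CPM and 224 CPM in other T cells, again with opposite directions in the 2 libraries.

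Among type 17 genes, 4 of 7 tested were lower in CD8 cells and none higher. Il17a, the cytokine interleukin 17A, had 1 UMI in each CD8 sum, against 1609 CPM in JQ1 and 2706 CPM in control other T cells. Other T cells exceeded CD8 cells 345-fold in JQ1 (61.9 to 13643) and 232-fold in control (41.5 to 9162), and the log2 fold change was -8.05 ± 0.30 (adjusted p = 0.00041). Il17f had no UMI in CD8 cells of either library, against 243 CPM in JQ1 and 1026 CPM in control other T cells. With 3 counts per library as the floor, it was at least 17.3-fold lower in JQ1 and at least 29.3-fold lower in control CD8 cells (adjusted p = 0.0141). Maf, a factor of type 17 and regulatory T cells, had 3 and 4 UMIs, 14.0 CPM and 46.7 CPM, against 305 CPM and 307 CPM (log2 -3.53 ± 0.51, adjusted p = 0.0395). Tmem176b had 41.9 CPM and 35.0 CPM against 252 CPM and 304 CPM (log2 -2.70 ± 0.39, adjusted p = 0.0395). The median of the 7 was -4.12, or -3.53 with genes at 0 set to the 3-count bound. With the limits all 7 of 7 tested were lower.

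Of 3 gamma-delta genes tested 1 was lower, Trdc, at 0 in CD8 cells of both libraries against 518 CPM in JQ1 and 783 CPM in control other T cells. It was at least 37.1-fold lower in JQ1 and at least 22.4-fold lower in control CD8 cells (adjusted p = 0.0141). Summed over 7 gamma-delta markers, CD8 cells had 88.5 CPM in JQ1 and 81.7 CPM in control, against 901 CPM and 1379 CPM in other T cells. A gamma constant gene was detected in 10 of 40 JQ1 and 3 of 22 control CD8 cells, each of which also had an alpha or beta constant gene. Tcrg-C2 made up most of these, at 16 UMIs in JQ1 and 4 UMIs in control.

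Of 10 CD4 and regulatory genes tested 1 was lower, Areg, a growth factor made by regulatory and innate-like lymphocytes. It had 2 UMIs and 1 UMI in CD8 cells, 9.32 CPM in JQ1 and 11.7 CPM in control, against 614 CPM and 1338 CPM in other T cells (log2 -6.27 ± 0.42, adjusted p = 0.00666). The excess in other T cells was 65.9-fold in JQ1 (18.2 to 544) and 115-fold in control (20.5 to 4534). Tnfrsf4, the OX40 receptor, had 65.2 CPM and 70.0 CPM in CD8 cells against 284 CPM and 340 CPM in other T cells (log2 -2.11 ± 0.34, adjusted p = 0.0577). With the limits 6 of 10 were lower: Areg, Tnfrsf4, Il2ra, Ikzf2, Ctla4 and Icos. The rule barred Cd4 and Foxp3 UMIs from CD8 cells alone, so that this list is not independent of it.

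A further 4 genes with the same direction in both libraries were lower: Il1rl1, the interleukin 33 receptor, the neutrophil-attracting chemokine Cxcl2, the pericyte gene Rgs5 and the matrix protease Mmp3. Cxcl2 had 41.9 CPM in JQ1 and 23.3 CPM in control CD8 cells, against 683 CPM and 845 CPM in other T cells (log2 -4.34 ± 0.41, adjusted p = 0.0141). Over 5 neutrophil markers, other T cells had 1080 CPM in JQ1 and 631 CPM in control, and CD8 cells 55.9 CPM and 5486 CPM. With the limits that sum was higher in other T cells of both libraries, as given above. The part of neutrophil RNA in the Cxcl2 value was not tested. Il1rl1 had 1 UMI in JQ1 and none in control CD8 cells, against 181 CPM and 57.2 CPM in other T cells (adjusted p = 0.0395). The other 10 lower genes, gland genes such as Dcpp1 and Agr2, haemoglobins, Postn, Retnlg and Psca among them, are not T cell genes. They were at 0 in control CD8 cells, and Psca, the haemoglobins and Dcpp3 were at 0 in other T cells of 1 library too. Summed over 4 haemoglobins, JQ1 cells had 331 CPM (CD8) and 4847 CPM (other T), and control cells had no UMI in either group.

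On the higher side, Odam and Sprr2i, epithelial genes, rested on single barcodes. Odam had 98 UMIs in JQ1 CD8 cells, 98.0% of them in 1 cell, and none in control CD8 cells, so that its sign in control comes from the 3-count floor. Sprr2i had 109 UMIs in 1 control CD8 cell and none in JQ1 CD8 cells, so that its direction in JQ1 comes from the 3-count floor alone. The remaining 4 higher genes encode ribosomal proteins (Rps24, Rpsa, Rps15a and Rps27), with log2 fold changes of 0.55 to 0.71. Of 86 ribosomal protein genes tested, 84 had a positive fold change, with a median of 0.44 on the log2 scale.

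Immediate early genes, which respond to stimulation and to tissue dissociation, gave no call among 17 tested, with a median of -0.51. Fos had 1081 CPM in JQ1 and 852 CPM in control CD8 cells, against 1777 CPM and 1384 CPM in other T cells (log2 -0.63 ± 0.17, adjusted p = 0.199). Dusp1, a phosphatase of the same response, had 615 CPM and 374 CPM against 1363 CPM and 1013 CPM (log2 -1.21 ± 0.22, adjusted p = 0.0772). With the limits 11 of 17 were lower, among them Fos and Dusp1. No gene was called among 8 interferon genes tested, with a median of -0.19, or among 5 proliferation genes, with a median of -0.20.

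**Figure D3:**
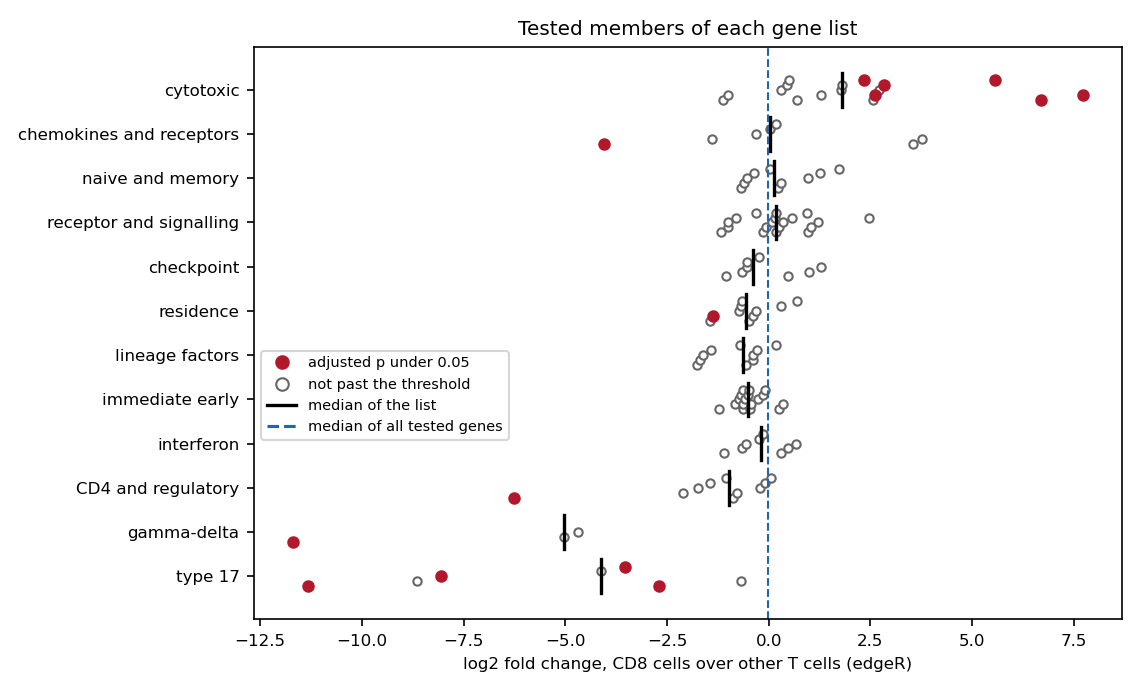
Log2 fold change, CD8 cells over other T cells, of each tested member of 12 gene lists (rows, vertical offset without meaning). Filled points have an edgeR adjusted p under 0.05, bars are list medians and the dashed line is the median of all tested genes at -0.03. The cytotoxic median lies at 1.81, and fold changes of genes at 0 in CD8 cells (Trdc, Il17f and Il22) are fitted values and no bound.

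The CD8 cells also differed among themselves. Both Cd8a and Cd8b1 were detected in 21 of 40 JQ1 and 13 of 22 control cells, Cd8b1 alone in 15 and 5, and Cd8a alone in 4 and 4. Nkg7 and Ccl5 together were detected in 16 of 40 JQ1 and 10 of 22 control cells, and Nkg7 without Ccl5 in 16 and 11. A UMI of Gzma, Gzmb, Gzmk or Prf1 was seen in 14 of 40 JQ1 cells (35.0%, exact interval 20.6 to 51.7) and 6 of 22 control cells (27.3%, 10.7 to 50.2). Nkg7 without any of these 4 was seen in 21 of 40 and 15 of 22 cells, so that Nkg7 detection without a granzyme or perforin UMI was the more frequent pattern at this depth. Pdcd1 was detected in 16 of 40 JQ1 and 8 of 22 control cells, Pdcd1 with Tcf7 in 5 and 1, and at least 2 of Pdcd1, Lag3 and Havcr2 in 9 and 4. Mki67 or Top2a, genes of dividing cells, were seen in 7 of 40 and 2 of 22 cells. These shares move with depth, and a cell without a UMI may still express the gene.

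The second comparison set JQ1 against control, with 1 library each and hence no test. CD8 cells were 40 of 470 Cd3-positive barcodes within the marker limits in JQ1 (8.51%, exact interval 6.15 to 11.4) and 22 of 223 in control (9.87%, 6.29 to 14.6). The intervals overlap. The denominators include 1 JQ1 and 4 control barcodes with Cd8 UMIs and Cd4 or Foxp3 UMIs. The share depends on depth. With each barcode thinned to 1000 UMIs, 15 of 344 JQ1 (4.36%, exact interval 2.46 to 7.09) and 15 of 170 control barcodes (8.82%, 5.02 to 14.1) passed. Deep enough to be thinned were 485 of 503 Cd3-positive barcodes in JQ1 and 224 of 247 in control. Over 20 such draws the mean share was 5.37% in JQ1 and 8.46% in control. The lowest and highest draws were 3.81% and 6.49% in JQ1 and 6.21% and 10.9% in control, a spread from thinning alone. With at least 2 Cd8a and Cd8b1 UMIs the share was 5.32% in JQ1 and 7.62% in control. Kept barcodes as a whole had a median of 3948.5 UMIs in JQ1 and 11435 in control.

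Within CD8 cells, 2077 genes had at least 20 UMIs over both sums, of which 328 (15.8%) were at least 2-fold higher and 209 (10.1%) at least 2-fold lower in JQ1. The median log2 ratio was -0.00, and 0.13 with TMM scaling. In other T cells, 1476 of 8985 genes (16.4%) were higher and 253 (2.82%) lower by that measure. With marker and depth limits 135 of 1201 genes (11.2%) were higher in JQ1 CD8 cells and 63 (5.25%) lower. A ratio compares these 2 libraries, and its interval covers counting error only.

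The cytotoxic genes split in JQ1. Of 16 measured, 7 were at least 2-fold higher and 3 at least 2-fold lower, beside 15.8% and 10.1% over all measured genes. The cytotoxic median log2 ratio was 0.64 (0.89 with the limits, over 14 genes). Thinned to 1000 UMIs a cell, 6 genes remained measured and their median was -1.06. Granzymes made up much of the higher side. Gzmf, as above, had 336 UMIs in JQ1 and none in control. Against the 3-count floor its ratio was 44.7, and 45.7 with the limits. By cells, it was detected in 6 of 40 in JQ1 (15.0%, 5.71 to 29.8). In control it was detected in none of 22 (0 to 15.4%), and these intervals overlap. Gzmb had 205 CPM in JQ1 and 23.3 CPM in control, a ratio of 8.78 (2.29 to 74.8) from 44 UMIs and 2 UMIs. Of the 44 JQ1 UMIs of Gzmb, 19 were in 1 cell and 12 in another. By cells, Gzmb was detected in 8 of 40 in JQ1 (9.05 to 35.6%) and 2 of 22 in control (1.12 to 29.2%), and these intervals overlap. Gzma had 363 CPM and 93.4 CPM (ratio 3.89, 1.88 to 9.33), with 75.6% of the JQ1 UMIs in 1 cell. In other T cells the Gzmb ratio was 0.88.

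Other effector genes were lower in JQ1 or did not stand apart. Ctsw had 168 CPM in JQ1 and 479 CPM in control (ratio 0.35, 0.22 to 0.56), and Klrd1 had 233 CPM and 467 CPM (0.50, 0.32 to 0.78). With the limits these ratios were 0.34 and 0.47. Other T cells had ratios of 0.54 and 0.45, so both genes were also lower there. Nkg7 had a ratio of 0.82 (0.66 to 1.02), Ifng of 1.45 (0.82 to 2.70) and Prf1 of 2.53 (0.74 to 13.3), with intervals that include 1. The levels of the genes of the rule, Cd8a (350 CPM in JQ1 and 420 CPM in control) and Cd8b1 (391 CPM and 572 CPM), are set partly by how cells were chosen and are a description.

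Ccl5 was lower in JQ1 CD8 cells, with 829 CPM against 1914 CPM in control (ratio 0.43, 0.35 to 0.54). The ratio was also 0.43 with the limits. Detection of Ccl5 was close, in 19 of 40 JQ1 and 11 of 22 control CD8 cells. The highest cells held 40, 26 and 25 Ccl5 UMIs in JQ1 and 33, 33 and 32 in control. How far such cells set the ratio was not tested. In other T cells Ccl5 had 124 CPM in JQ1 and 73.5 CPM in control, a ratio of 1.69, so the direction was the opposite there; the difference between the cell groups was not tested. Ccl4 had 107 CPM in JQ1 and 280 CPM in control CD8 cells (0.38, 0.21 to 0.71), and Cxcr6, a receptor of tissue T cells, 182 CPM and 385 CPM (0.47, 0.29 to 0.77). Xcl1 had a ratio of 13.1 that came from 1 cell, and 0.53 (0.16 to 1.76) with the limits.

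Of 15 receptor and signalling genes measured, 1 was at least 2-fold higher and 5 at least 2-fold lower in JQ1. Over all measured genes the shares were 15.8% higher and 10.1% lower. The median log2 ratio of the receptor list was -0.76 (-0.59 with the limits). Trac had 345 CPM in JQ1 and 700 CPM in control (ratio 0.49, 0.35 to 0.70), Trbc1 219 CPM and 735 CPM (0.30, 0.20 to 0.44) and Trbc2 564 CPM and 1004 CPM (0.56, 0.42 to 0.75). In other T cells the ratio of Trac was 1.03, of Trbc1 0.53 and of Trbc2 0.67. Cd28, a co-stimulatory receptor, had 270 CPM in JQ1 and 607 CPM in control CD8 cells, a ratio of 0.45 (0.30 to 0.66). Detection followed the same order for Trac, in 21 of 40 JQ1 and 18 of 22 control CD8 cells.

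Memory and checkpoint genes went both ways. Il7r had 196 CPM in JQ1 and 420 CPM in control CD8 cells (ratio 0.47, 0.29 to 0.75), and its ratio in other T cells was 0.64. Ccr7, the lymph node homing receptor, had 163 CPM in JQ1 and 23.3 CPM in control, a ratio of 6.99 (1.80 to 60.0) from 35 UMIs and 2 UMIs. Of the JQ1 UMIs of Ccr7, 12 were in 1 cell that Scrublet called a doublet. Thinned to 1000 UMIs a cell, the log2 ratio of Ccr7 was -0.12. Tcf7 had a ratio of 0.69 (0.35 to 1.41), Pdcd1 of 1.34 (0.77 to 2.45) and Ctla4 of 1.13 (0.70 to 1.88). The lineage list had 7 measured genes, of which Runx3 and Rora were at least 2-fold higher in JQ1 and none lower. Over all measured genes 15.8% were higher and 10.1% lower. The median log2 ratio of the lineage list was -0.21, and -0.34 with the limits. Runx3 had 289 CPM in JQ1 and 128 CPM in control CD8 cells (2.25, 1.17 to 4.74), against a ratio of 0.76 (0.62 to 0.93) in other T cells, and the difference between the cell groups was not tested. Tnfrsf9, the 4-1BB receptor of activated T cells, had 340 CPM in JQ1 and 46.7 CPM in control (7.29, 2.73 to 27.5).

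Of 17 immediate early genes measured 4 were at least 2-fold higher in JQ1 (15.8% over all measured genes) and none lower, with a median log2 ratio of 0.39. With the limits 1 of 16 was higher (11.2% over all measured genes) and none lower, with a median of 0.10. Fosb had 1067 CPM in JQ1 and 327 CPM in control (ratio 3.26, 2.20 to 5.02), with 39.3% of its JQ1 UMIs in 1 cell, and a ratio of 0.74 (0.43 to 1.29) with the limits. Of 8 BET-related genes measured none reached 2-fold, with a median of -0.00. Hexim1, which is often followed as a BET inhibitor response gene, had 126 CPM in JQ1 and 140 CPM in control (0.90, 0.44 to 1.95). Myc had 103 CPM and 152 CPM (0.68, 0.33 to 1.46) and Txnip 233 CPM and 210 CPM (1.11, 0.64 to 2.02). The interferon list had 7 measured genes. Of these 1 was at least 2-fold higher and 1 lower, near the 15.8% and 10.1% over all measured genes, and the median was -0.14. The higher one was Ifi27l2a, an interferon-induced gene, with 331 CPM in JQ1 and 46.7 CPM in control (7.09, 2.65 to 26.7).

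By the ranking over all genes, the genes farthest above 1 in JQ1 CD8 cells after Gzmf were Igfbp4, Tff2, Serping1, Irf8, Agr2, Ifitm3, Nfib, Muc5b and Hes1. Irf8, a factor of lymphoid and myeloid cells, had 60 UMIs in 6 JQ1 cells and none in control. Against the 3-count floor its ratio was 7.98, and 8.61 with the limits. Its ratio in other T cells was 1.53 (0.95 to 2.57). Tff2, Agr2 and Muc5b are genes of mucous glands. Muc5b had 433 CPM in JQ1 and 23.3 CPM in control CD8 cells, and 6468 CPM in JQ1 and 57.2 CPM in control other T cells. As given above, the gland sum and the fibroblast sum were also higher in JQ1 CD8 cells, and their part in these ratios was not tested. Igfbp4, Serping1, Nfib and Hes1 are not typical of T cells. With the limits Igfbp4 had 5 UMIs, Serping1 3 UMIs, Nfib 2 UMIs and Hes1 none in JQ1, and none of the 4 had a UMI in control.

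The genes farthest below 1 were Ifitm1, Glrx, Klk8, Trbc1, Pycard, M6pr, Lgals3, Ctla2a, Ccl5 and S100a4. Ifitm1, an interferon-inducible membrane protein, had 298 CPM in JQ1 and 1564 CPM in control CD8 cells (ratio 0.19, 0.14 to 0.26), and the same ratio of 0.19 with the limits. It was detected in 12 of 40 JQ1 and 15 of 22 control cells, and its ratio in other T cells was 0.52. Ctla2a, an inhibitor of cathepsins found in activated mouse T cells, had 513 CPM in JQ1 and 1354 CPM in control CD8 cells (0.38, 0.29 to 0.50), and its ratio in other T cells was 1.06 (0.95 to 1.20). S100a4, a gene of effector and memory T cells, had 652 CPM and 1518 CPM (0.43, 0.34 to 0.55), and Lgals3, galectin 3, had 429 CPM and 1167 CPM (0.37, 0.27 to 0.49). Their ratios in other T cells were 0.51 and 0.34. Klk8 is a keratinocyte protease, and the keratinocyte sum was lower in JQ1 too; its part in the Klk8 ratio was not tested.

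**Figure D4:**
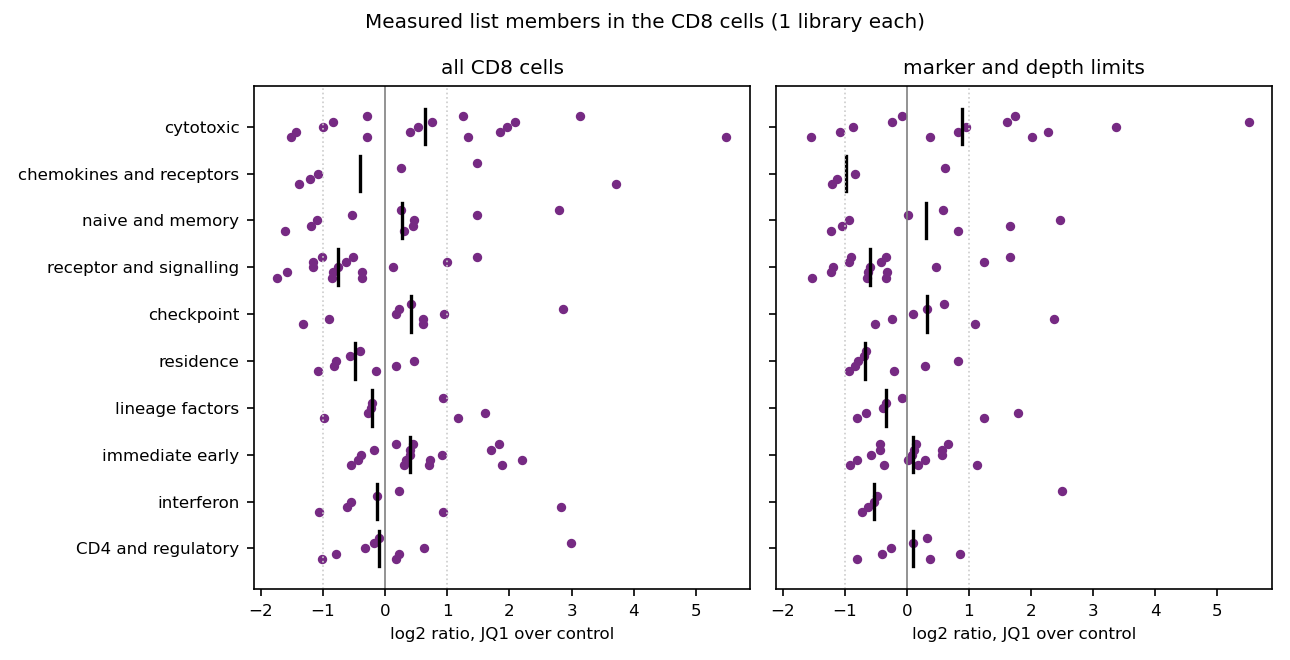
Log2 ratio of JQ1 over control in CD8 cells for measured members of 10 gene lists (rows, vertical offset without meaning), for all CD8 cells on the left and with marker and depth limits on the right. Bars are list medians and dotted lines mark 2-fold. The cytotoxic median is 0.64 on the left and 0.89 on the right, and the receptor and signalling median is -0.76 and -0.59.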

How the data were processed

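The deposited matrices hold raw UMI counts per gene and barcode, per the file headers, for 31053 genes. Every barcode in them has at least 500 UMIs. Per the labels' protocols, libraries came from the 10x Chromium Single Cell 3′ v3.1 kit. Per the submitters' processing notes, mm10, Cell Ranger (3.1.0) and Seurat (4.0.0) were used.

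Counts were summed over CD8 and over other T cells in each library. The 4 sums were fitted with edgeR 4.0.16 (R 4.3.3; quasi-likelihood test, TMM, Benjamini-Hochberg adjustment). The library is the block, since both cell groups of a library come from the same suspension. Genes with a mean of at least 50 CPM and 20 UMIs were tested, leaving out mitochondrial genes and the 11 genes of the rule. With 1 library per treatment, JQ1 against control was not tested. Ratios of CPM there have exact conditional 95% intervals, CPM exact Poisson intervals and shares Clopper-Pearson intervals, all for counting error only. Genes with 20 UMIs over both sums were measured, and a sum of 0 was set to 3 counts per library. Scrublet (scanpy 1.11.5) called 424 JQ1 and 119 control barcodes doublets, and the calls were removed only in an alternative. A fibroblast background was taken from barcodes with at least 3 Dcn UMIs, none of Ptprc or Cd3 genes and the same limit on keratins. DESeq2 1.42.0 and the other alternatives are given at the end. Figures were drawn with matplotlib 3.10.9. In 10 simulated data sets of 2753 genes, 200 changed, the test called 48.4% of genes 4-fold up and 25.8% of genes 4-fold down. It called 5.6% and 2.6% of genes changed 2-fold up and down. Counts were drawn with 1 dispersion for all genes and the same change in CD8 cells of both libraries. These rates may not hold for genes with most UMIs in 1 barcode.

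Cells and gene lists were chosen with earlier results of these data known. Genes named are members of those lists, up to 12 genes in each direction against other T cells, called and with the same sign in both libraries (9 were called on the higher side, and the 3 added by p-value, Eef1a1, Serpinb9 and Klrc1, did not pass), and the 10 genes in each direction whose JQ1 to control interval lay farthest from 1, with a UMI in at least 5 cells and no cell holding most of the UMIs. Mitochondrial, ribosomal, haemoglobin, sex-linked and receptor-segment genes and genes of the rule were left out of these rankings. Ribosomal and other-cell genes named outside them were chosen after their values were seen.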

Additional observations from a re-analysis of the deposited data

Results flagged for a closer look

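For 5 list genes the ratio of CD8 to other T cells lay above 1 in 1 library and below 1 in the other with both counting intervals clear of 1, and none of these differences was tested. Runx3 and Pdcd1 also had opposite signs, with an interval in control that included 1. Gzmb was higher in CD8 cells in JQ1 (log2 1.07) and lower in control (log2 -2.25), on 44 UMIs in 8 JQ1 CD8 cells and 2 UMIs in 2 control CD8 cells. With marker and depth limits these values were 1.12 and -2.21. Lamp1, a lysosome membrane protein that marks degranulation at the cell surface, had -0.62 in JQ1 and 1.43 in control, and 60.7% of its control CD8 UMIs were in 1 cell. Ccl4 had -0.65 in JQ1 and 0.90 in control, and Cd28 had -0.44 and 0.67. Atf3, an immediate early gene, had 0.45 in JQ1 and -1.25 in control, with 64.1% of its JQ1 CD8 UMIs in 1 cell, and with the limits it was lower in both libraries (-0.83 and -0.77).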

How the results depend on the processing

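With 22 control CD8 cells and 1 residual degree of freedom, the counts of genes higher and lower in CD8 cells, 13 and 22, moved widely. They were 25 and 12 with DESeq2 (5 and 3 shared with edgeR; adjusted p missing for 2508 genes), 48 and 117 with no filter on low counts, and 0 and 0 with no replicate block. They were 32 and 63 without Scrublet doublets, 67 and 82 with at least 2 Cd8 UMIs, 1 and 4 without marker limits, 13 and 46 with thinning, and 9 and 9 against other T cells with Cd4. Among alternatives chosen after the data were seen they were 87 and 92 with at least 2 Cd3 UMIs. They were 49 and 70 under 1% of keratinocyte, gland and fibroblast marker UMIs. Others of this kind gave 48 and 112 without the deepest CD8 cell of each library and 110 and 154 with marker and depth limits. Against other T cells with Trac, the last of these alternatives, the counts were 0 and 0. DESeq2's size factors and the stricter cell filter left them within 1.5 times. The cause was not tested. Over 15 alternative fits Nkg7 was higher by 1.52 to 3.05 on the log2 scale and past the threshold in 11, with an adjusted p of 0.0661 with no block and at most 0.129. Il17a was past it in 13 of the 15.

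Single genes changed sign as follows, in log2 CD8 over other T cells. Gzmb was -0.058 with at least 2 Cd3 UMIs, -0.28 against Trac cells and -0.23 thinned. Against Cd4 cells Ccl4 was -0.29, Ifng -0.051, Lag3 -0.26, Cd69 0.14, Runx3 -0.18 and Cd28 -0.51. Runx3 was -0.014 with at least 2 Cd3 UMIs. Lamp1 was -0.069 without marker limits, -0.025 with marker and depth limits, -0.092 thinned and -0.40 without the deepest cells. Cd28 was -0.16 with at least 2 Cd8 UMIs, -0.36 against Trac cells and -0.050 thinned, and Atf3 was 0.25 against Trac cells and 0.19 under 1% marker UMIs. With 1 library left out, the lowest value was -2.25 for Gzmb, -0.65 for Ccl4, -0.10 for Pdcd1, -0.80 for Runx3, -0.62 for Lamp1 and -0.44 for Cd28, and the highest was 1.07, 0.90, 0.82, 0.77, 1.43 and 0.67, and Atf3 spanned -1.25 to 0.45.

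For JQ1 against control, the CD8 share in JQ1 was 5.32% with at least 2 Cd8 UMIs and 4.36% thinned. Genes 2-fold higher and lower numbered 43 and 46 thinned, 135 and 63 with marker and depth limits, and 715 and 472 at 10 UMIs, and 119 were lower without the deepest cells. The all-gene median was 0.13 with TMM, -0.12 thinned, -0.082 without doublets, -0.083 under 1% marker UMIs, 0.043 without the deepest cells and 0.090 at 10 UMIs. The cytotoxic median was -1.06 thinned, the receptor median -1.19 under 1% marker UMIs and the immediate early median 0.10 with marker and depth limits. Thinned log2 ratios were -0.12 for Serping1, -0.44 for Nfib, -2.44 for Hes1, 0.14 for Pycard and -0.12 for Ccr7. Xcl1 was -1.05 without doublets and -0.92 with marker and depth limits, where Igfbp4 was -0.19, Serping1 -0.92, Nfib -1.51 and Fosb -0.44. Ratios of genes with no control UMI are against the 3-count floor and say little once few UMIs remain.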
